A study of Mus musculus with 32 samples.

Results

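The 20 lungs of the series were compared by host genotype, 10 from *Clic4* knockout (KO) mice and 10 from wildtype (WT) mice, among 32 samples in all. They were chosen by tissue label alone, and the question was which differences between KO and WT lungs were present both with and without a mammary tumor elsewhere in the mouse. Of each genotype, 6 lungs came from mice that had carried 6DT1 cells, a mouse mammary tumor line from the FVB/N strain, in the fourth mammary fat pad for 14 days. The other 4 KO and 4 WT lungs were baseline controls from mice without a tumor, which were different animals. All hosts were virgin female FVB/N mice, young adult littermates from crosses between heterozygotes, and the tumor cells carried an intact *Clic4* gene in both host genotypes. The KO allele is a constitutive deletion around exon 2, present in every cell of the host. It was made on a mixed background and then backcrossed onto FVB/N with microsatellite checks of strain purity. At 14 days the lungs were taken as pre-metastatic, and the labels do not give the number of tumor cells in them.

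CLIC4 (chloride intracellular channel 4) belongs to a small family of proteins related to glutathione transferases that exist in a soluble and a membrane-associated form. It moves to the nucleus under stress, takes part in TGF-β signaling there, and binds the actin-linked ezrin, radixin and moesin proteins at the cell surface. Endothelial cells are rich in CLIC4, and it is known for its part in the formation of vessel lumens.

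Exon 2 of *Clic4* (ENSMUSG00000037242) is shown because it is the part of the gene that the KO allele lacks. It lies at chr4:135238862-135238971 on the minus strand of GRCm38 in the GENCODE M21 gene models used here, and all of its 110 bases are coding. The second sequence joins the last 21 bases of exon 1 to exon 3, as a transcript without exon 2 would read, up to the first stop in that frame, which is in capitals.
Clic4 exon 2: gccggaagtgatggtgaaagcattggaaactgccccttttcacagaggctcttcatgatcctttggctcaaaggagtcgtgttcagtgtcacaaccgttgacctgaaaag
Clic4 exon 1 to exon 3: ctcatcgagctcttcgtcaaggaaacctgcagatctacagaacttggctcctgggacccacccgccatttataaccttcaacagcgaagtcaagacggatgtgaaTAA
Read in this way, the joined transcript has 52 codons before the stop, against 253 codons in the transcript with exon 2. Whether such a transcript was made was not measured, since the deposited values are sums over all exons of a gene.

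The targeted gene separated the genotypes in every lung. *Clic4* ranged from 224 to 286 CPM (median 246) in 14-day KO lungs and from 601 to 879.6 CPM (median 646) in 14-day WT lungs, where CPM is the count of a gene scaled to a common library size after TMM normalization. The control KO lungs had 209.7, 217, 249 and 257 CPM and the control WT lungs 623, 626, 635 and 673 CPM. No KO lung reached the lowest WT lung in either state, and the mean of the KO lungs was 35.7% of the WT mean at 14 days and 36.5% in controls. Over all 20 lungs its log2 fold change (KO over WT) was -1.47 (SE 0.070, FDR 2.87e-12). FDR here and below is the Benjamini-Hochberg adjusted p of the edgeR quasi-likelihood test of the genotype effect, with tumor state as a covariate, over 16029 genes. The paralogs did not pass an FDR of 0.05, with -0.016 for *Clic1*, 0.0057 for *Clic3*, -0.037 for *Clic5* and 0.20 for *Clic6* on the log2 scale. Per length of transcript, *Clic4* was second in its family in WT lungs, at 175 ± 24.5 FPKM (SD, n = 10), behind *Clic5* at 191 ± 6.13, and in KO lungs it stood at 63.6 ± 6.87 FPKM (SD, n = 10). *Clic6*, at an FDR of 0.322, was the only paralog with an unadjusted p under 0.05, and the sign of the *Clic1* and *Clic3* values turned with the correction for GC content or with the covariate, and with single lungs left out.

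Between 4567220 and 8318711 counts were assigned to genes per lung, with a median of 5578104.5. Replicates differed by more than counting error, at a chi-squared of 2.55 to 10.2 per degree of freedom in 42 pairs. Markers of lung epithelium, endothelium and fibroblasts were present in every lung, while *Myh4* of skeletal muscle had no count in any lung and the mast cell and thymocyte markers were too low to test. The share of counts from mitochondrial genes was 8.63 to 9.69% in control KO lungs and 7.78 to 8.60% in control WT lungs, without overlap, and its part in the genotype differences was not tested. In the 14-day lungs that share overlapped, at 9.30 to 10.1% in KO and 8.33 to 10.1% in WT.

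Over all 20 lungs, 28 of 16029 genes (0.175%) passed an FDR of 0.05, of which 16 were higher (0.0998%) and 12 lower (0.0749%) in KO lungs. Lungs of both states entered these calls, so agreement between the states is a description of the called genes and no independent check. All 28 had the same sign in the 14-day lungs and in the controls. An unadjusted p under 0.05 in each state was reached by 27 of them (0.168% of all genes), whereas 118 of all genes tested (0.736%) had such a p with the same sign in both states, called or not. The exception was *Flt1*, with a log2 fold change of -0.23 at 14 days and -0.085 in controls. The KO and WT lungs did not overlap for 17 of the 28 genes at 14 days (0.549% of all genes) and for 19 in controls (7.59%), where fewer lungs were compared. For 11 of the 28, 7 higher and 4 lower, the KO and WT values did not overlap in either state. Such a separation in both states was found in 15 of all genes tested (0.0936%). The other 4 were *Col7a1*, *Itih5*, *Os9* and the gene *Gm26772*, chosen for mention after their values were seen, and *Col7a1* (-0.40) missed the FDR of 0.05 by a margin within rounding. Most differences were small, since 8 of the 28 genes exceeded 1.5-fold and 3 exceeded 2-fold.

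**Figure D1:**
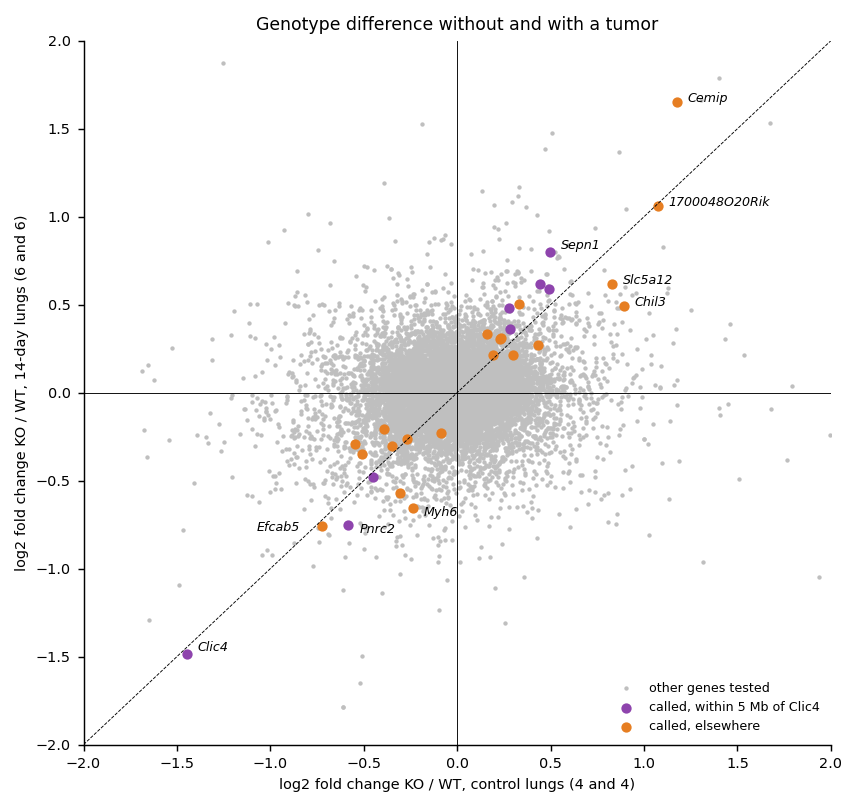
Log2 fold change of KO over WT in control lungs (x axis, 4 against 4) and in 14-day lungs (y axis, 6 against 6) for the genes tested, with the dashed line marking equal values. All 28 called genes, purple within 5 Mb of *Clic4* and orange elsewhere, lie in the lower left or upper right quadrant, with *Clic4* at -1.45 and -1.49.

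The count of 28 depended on the test and on single lungs. DESeq2 called 80 genes, including 24 of the 28. A fit with a replicate block, a term for each replicate number within a state, called 9 genes, all among the 28. Among the calls it ended were those of *Stab1*, *Scarb1*, *Myh6*, *Cemip*, *Crip1*, *Hp1bp3*, *Nbl1* and *1700048O20Rik*, which no left-out lung ended. In the deposited FPKM table, an added test with limma on log2(FPKM + 1) called 3 genes (*Clic4*, *Sepn1* and *Cdk19*). All 27 called genes with enough FPKM to be tested kept their direction, 26 of them with an unadjusted p under 0.05, and the other was *Pnrc2*. Of the 11 genes apart in both states by CPM, 6 were also apart in both states by FPKM, and *Pnrc2*, *Zfp46*, *Sema3c* and *Efcab5* were among those that were not. The count fell to 16 without 14-day WT lung 4 and to 18 without control KO lung 2. The calls of 16 of the 28 genes, *Clic4* among them, held with any lung left out, and the other 12 are named with their groups below.

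Genes close to *Clic4* on chromosome 4 made up the largest cluster of called genes. Within 5 Mb of *Clic4*, 7 of the 140 other genes tested were called (5%), 5 higher and 2 lower in KO lungs, against 20 of 15888 elsewhere (0.126%). Between 5 and 20 Mb no further gene was called. Of the 7, 6 lay within 4 Mb on the side of higher coordinates, among 50 genes tested there, and 1 among 72 within 4 Mb on the other side. An unadjusted p under 0.05 was seen in 37 of the 140 neighbors (26.4%), beside 10.7% of all genes. Because the allele came from a mixed background, an effect of DNA that travelled with the deletion and an effect of the loss of CLIC4 cannot be told apart for these genes.

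**Figure D2:**
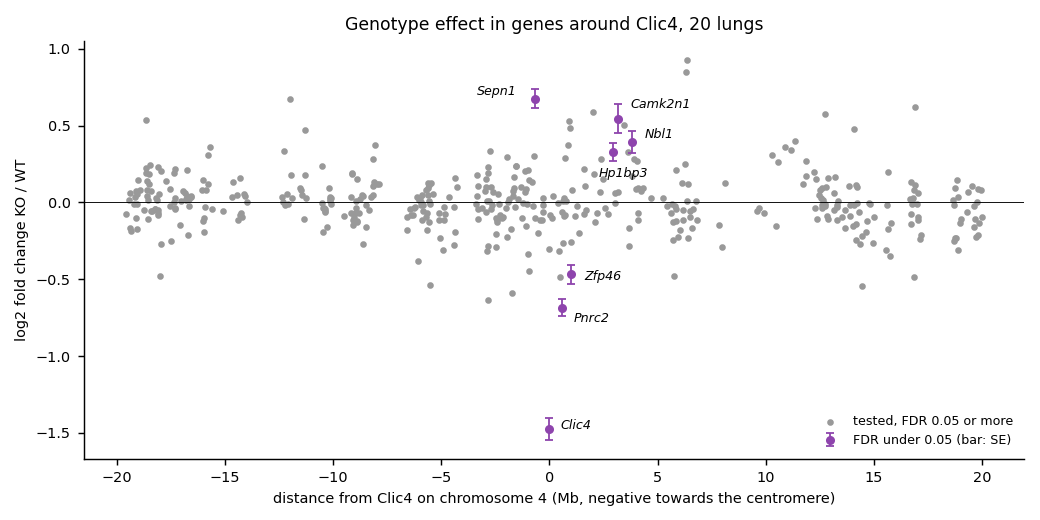
Log2 fold change of KO over WT over 20 lungs for genes within 20 Mb of *Clic4*, by distance from it in Mb. Of the 8 called genes, the 7 drawn (purple, bar: SE) lie between -0.662 and 3.81 Mb, with *Sepn1*, *Camk2n1*, *Nbl1* and *Hp1bp3* above 0 and *Pnrc2* and *Zfp46* below it.

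Of these neighbors, 2 were lower in KO lungs. *Pnrc2* (chromosome 4, 135870918 to 135873850, 0.598 Mb from *Clic4*), a coactivator of nuclear receptors that also acts in mRNA decay, ranged from 36.0 to 43.9 CPM (median 41.8) in 14-day KO lungs and from 62.6 to 79.9 CPM (median 68.9) in 14-day WT lungs. In controls it was at 38.6, 39.9, 41.6 and 41.7 CPM in KO lungs and 51.7, 59.1, 65.6 and 65.7 CPM in WT lungs. Every KO value lay below every WT value, and the log2 fold change was -0.69 (SE 0.056, FDR 1.34e-07). The deposited FPKM of *Pnrc2* did not show this separation, with 24.7 to 142 FPKM in KO and 41.4 to 152 FPKM in WT lungs at 14 days, where the KO mean was the higher (72.1 against 63.9). In controls its FPKM was 27.1 to 92.6 in KO and 36.5 to 85.7 in WT lungs, and over all lungs the log2(FPKM + 1) difference was -0.079 (SE 0.33, limma FDR 0.970). *Zfp46* (chromosome 4, 136284683 to 136293942), which encodes a zinc finger protein, ranged from 21.2 to 24.8 CPM (median 21.8) in 14-day KO lungs and from 26.4 to 33.3 CPM (median 32.2) in 14-day WT lungs. Control KO lungs had 18.5, 20.6, 22.5 and 24.0 CPM of *Zfp46* and control WT lungs 27.2, 28.0, 30.0 and 32.3 CPM. The groups were again apart in both states, and the log2 fold change was -0.47 (SE 0.059, FDR 0.000171).

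The other 5 neighbors were higher in KO lungs, and 4 of them are described. *Sepn1* (*Selenon* in GENCODE M21; chromosome 4, 134537892 to 134552166), a selenoprotein of the endoplasmic reticulum needed for muscle integrity, ranged from 44.3 to 49.4 CPM (median 47.9) in 14-day KO lungs and from 23.7 to 29.2 CPM (median 27.8) in 14-day WT lungs. In controls *Sepn1* was at 33.8, 41.2, 42.1 and 42.2 CPM in KO lungs and 26.5, 26.9, 28.4 and 31.9 CPM in WT lungs. The genotypes did not overlap in either state, and the log2 fold change was 0.67 (SE 0.061, FDR 7.81e-07). Control KO lung 2 had the lowest KO value.

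The 3 neighbors at a greater distance overlapped between the genotypes in the control lungs. *Camk2n1*, an inhibitor of the calcium/calmodulin-dependent kinase CaMKII, had a log2 fold change of 0.55 (SE 0.095, FDR 0.0132), with 0.62 at 14 days and 0.44 in controls. *Nbl1* encodes a secreted antagonist of bone morphogenetic proteins and had 0.40 (SE 0.072, FDR 0.0155), with 0.48 at 14 days and 0.28 in controls. *Hp1bp3*, a chromatin protein related to linker histones, had 0.33 (SE 0.061, FDR 0.0187), with 0.36 at 14 days and 0.28 in controls. At 14 days the KO and WT lungs were apart for *Camk2n1* and *Hp1bp3*, and overlapped for *Nbl1*. No left-out lung ended the call of any of the 7 neighbors. The replicate block ended the call of *Nbl1* (FDR 0.113), and with or without GC offsets that of *Hp1bp3* (up to 0.113). On log2(FPKM + 1) only *Sepn1* of the 7 kept its call, with a limma FDR of 0.496 for *Zfp46* and 0.224 for *Hp1bp3*.

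The other 20 called genes lay on 12 chromosomes other than that of *Clic4*, 11 higher and 9 lower in KO lungs, with log2 fold changes between 0.17 and 1.43 in size. For 6 of them the genotypes were apart in both states.

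**Figure D3:**
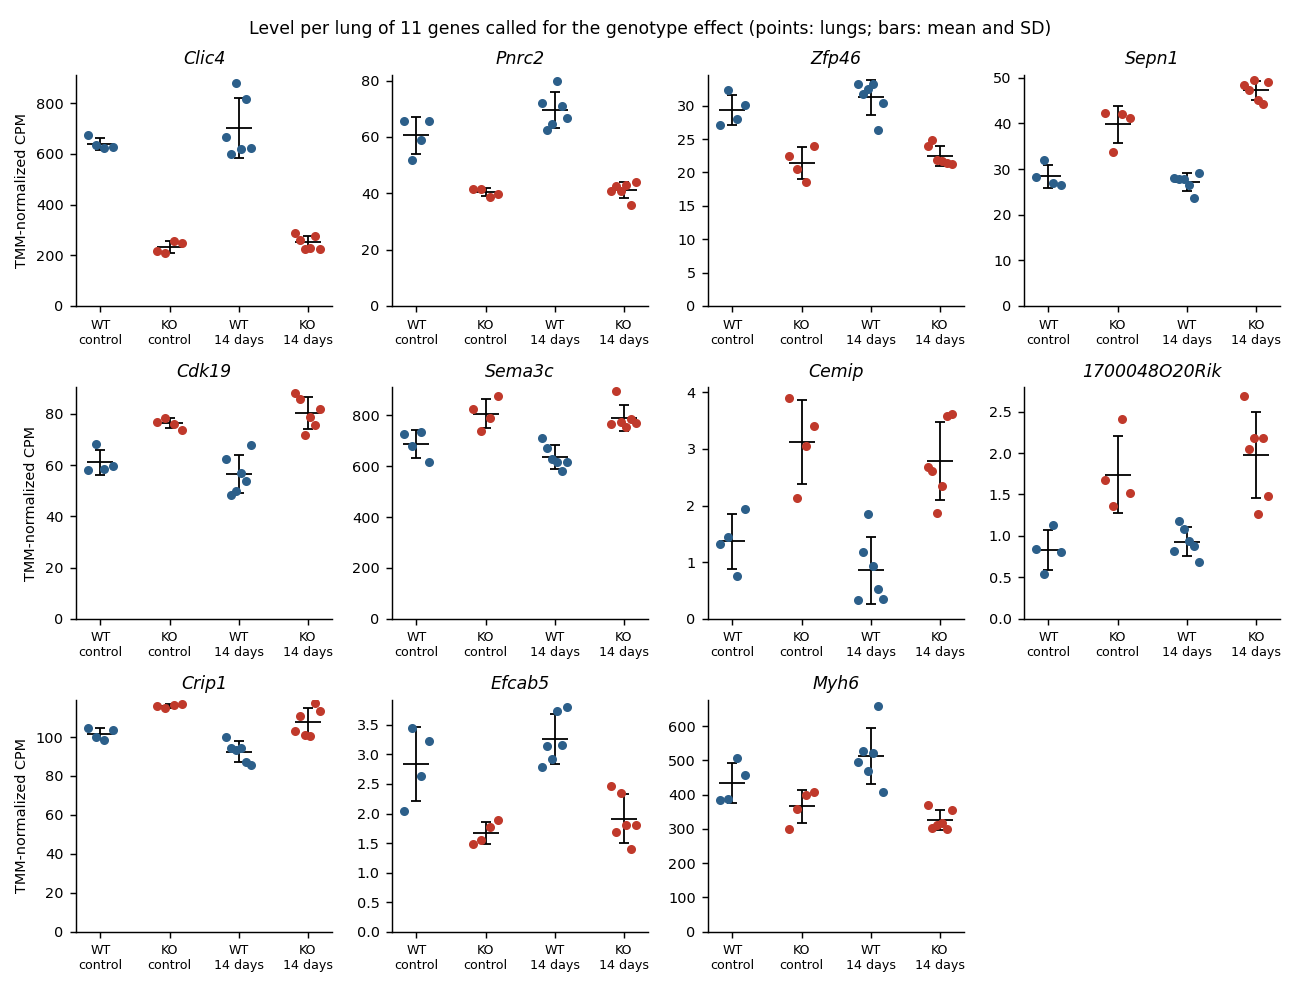
Level in CPM (y axis, from 0) of 11 called genes in each lung by group, with the mean and SD of the group as a bar. In every panel except *Myh6*, all KO lungs (red) lie on one side of all WT lungs (blue) of the same state. *Clic4* stays at or below 286 CPM in KO lungs and at or above 601 CPM in WT lungs.

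In this set, 5 genes were higher in every KO lung than in every WT lung of the same state. *Cdk19* (chromosome 10, 40339564 to 40483818), a kinase of the Mediator complex that regulates transcription, ranged from 71.7 to 88.4 CPM (median 80.4) in 14-day KO lungs and from 48.3 to 68.0 CPM (median 55.5) in 14-day WT lungs. In control lungs *Cdk19* was at 73.9, 76.3, 77.0 and 78.5 CPM in KO and 58.2, 58.3, 59.6 and 68.2 CPM in WT. Its log2 fold change was 0.43 (SE 0.059, FDR 0.000628), the smallest FDR outside chromosome 4, and an antisense gene, *Cdk19os*, overlaps its locus. *Sema3c* (chromosome 5, 17574281 to 17730268), a secreted semaphorin that guides growing axons and vessels, ranged from 753 to 894 CPM (median 770.4) in 14-day KO lungs and from 581 to 709 CPM (median 621) in 14-day WT lungs. The control lungs had 738, 789, 823 and 876 CPM of *Sema3c* in KO and 615, 678, 727 and 734 CPM in WT. The KO lungs were higher without overlap but by little, and the log2 fold change was 0.28 (SE 0.046, FDR 0.00781). The correction for GC content brought its FDR to 0.0573.

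*Crip1* (chromosome 12, 113146316 to 113153879), a small LIM domain protein, ranged from 100.3 to 117 CPM (median 107) in 14-day KO lungs and from 85.6 to 100.2 CPM (median 93.8) in 14-day WT lungs. Its control values were 115, 116, 116 and 117 CPM in KO lungs and 98.4, 100.1, 104 and 105 CPM in WT lungs. The 14-day groups were barely apart, and the log2 fold change was the smallest of the 5, at 0.21 (SE 0.037, FDR 0.0155). A fit without the tumor state ended the call of *Crip1* (FDR 0.0581). *Cemip* (chromosome 7, 83932857 to 84086502), which takes part in the breakdown of hyaluronan, ranged from 1.87 to 3.61 CPM (median 2.65) in 14-day KO lungs and from 0.328 to 1.85 CPM (median 0.731) in 14-day WT lungs. *Cemip* in controls was at 2.14, 3.06, 3.40 and 3.91 CPM in KO lungs and 0.753, 1.32, 1.45 and 1.94 CPM in WT lungs. Among the called genes this difference was the largest in size after *Clic4*. The log2 fold change was 1.43 (SE 0.24, FDR 0.0118), but the values rested on 2 to 22 counts per lung. The long noncoding RNA gene *1700048O20Rik* (chromosome 9, 121937223 to 121947016) likewise had only 3 to 15 counts per lung, and the log2 fold change was 1.06 (SE 0.19, FDR 0.0155). Both low genes fell out of a test limited to genes with at least 10 counts in every lung.

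The remaining higher genes encode secreted proteins, a transporter and a macrophage product, and each overlapped between the genotypes in at least 1 state. *Igfbp5*, a binding protein of insulin-like growth factors made by stromal cells, had a log2 fold change of 0.26 (SE 0.050, FDR 0.0225), with 0.33 at 14 days and 0.16 in controls. *Cxcl12*, the chemokine that binds CXCR4, had 0.27 (SE 0.054, FDR 0.0339), with 0.30 at 14 days and 0.23 in controls. *Hc*, complement component C5, had 0.34 (SE 0.067, FDR 0.0362), with 0.27 at 14 days and 0.43 in controls. *Cp*, the plasma copper protein ceruloplasmin, had 0.25 (SE 0.052, FDR 0.0473), with 0.22 at 14 days and 0.30 in controls. *Slc5a12*, a lactate transporter coupled to sodium, had 0.70 (SE 0.14, FDR 0.0438), with 0.62 at 14 days and 0.83 in controls. *Hc* separated the control lungs most plainly, at 299.6, 302, 302 and 307 CPM in KO and 202, 225, 232 and 241 CPM in WT lungs, while at 14 days it overlapped. *Hc*, *Cp* and *Slc5a12* fell outside the rule for named genes and are given after their values were seen. Leaving out single lungs ended the call of *Cxcl12* in 10 of 20 fits (FDR up to 0.0780), of *Hc* in 11 (up to 0.0846), of *Slc5a12* in 14 (up to 0.0957) and of *Cp* in 15 (up to 0.103). The call of *Igfbp5* was lost without 14-day WT lung 3 or 4 (FDR up to 0.0537). The correction for GC content ended the calls of *Cp* (FDR 0.0882) and *Slc5a12* (0.0580). A fit without the tumor state ended *Igfbp5* (FDR 0.139), *Cxcl12* (0.0661) and *Cp* (0.0636), and the average of the 2 states ended *Cxcl12* (0.0512). Without the filter on low counts *Cp* (FDR 0.0538) and *Slc5a12* (0.0557) were not called.

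*Chil3*, a chitinase-like protein that alveolar macrophages secrete, was the only macrophage marker called. It ranged from 256 to 513 CPM (median 345) in 14-day KO lungs and from 201 to 314 CPM (median 259) in 14-day WT lungs. In controls the KO lungs had 322, 343, 486 and 507 CPM and the WT lungs 142, 216, 238 and 299 CPM. The control groups did not overlap and the 14-day groups did, and the log2 fold change was 0.65 (SE 0.13, FDR 0.0438). Of the 8 alveolar macrophage markers tested, *Chil3* alone passed, and the log2 fold changes of the other 7 ran from -0.073 for *Fabp1* to 0.37 for *Marco*, which differed in sign between 14 days (0.86) and controls (-0.15). The summed level of the 8 markers, of which *Chil3* gives the greater part, was 359 to 676 CPM in 14-day KO lungs, 301 to 459 in 14-day WT, 465 to 686 in control KO and 251 to 453 in control WT. In RNA from whole lobes, more cells of a type and more RNA per cell cannot be told apart. The *Chil3* call was lost in 15 of 20 fits that left out a lung (FDR up to 0.0949) and with the correction for GC content (FDR 0.0510), and *Chil3* shares sequence with close paralogs between which RSEM divides reads.

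**Figure D4:**
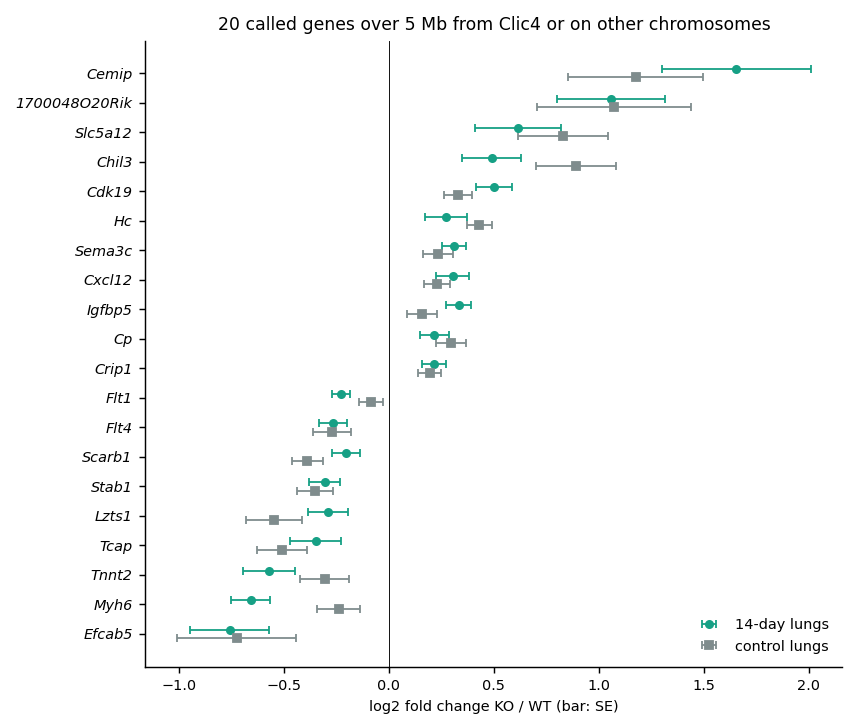
Log2 fold change of KO over WT with its SE for the 20 called genes away from *Clic4*, in 14-day lungs (circles) and control lungs (squares). Both values lie on the same side of 0 for each gene, from *Cemip* at 1.65 and 1.18 to *Efcab5* at -0.76 and -0.72, and *Flt1* has the control value nearest 0, at -0.085.

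The 9 lower genes are taken in an order chosen after the calls were seen, beginning with 4 that encode receptors, of which *Flt1* and *Flt4* belong to a gene list used here and *Stab1* and *Scarb1* to none. *Stab1* (chromosome 14, 31139013 to 31168641), a scavenger receptor of sinusoidal endothelium and tissue macrophages, ranged from 115 to 136 CPM (median 133) in 14-day KO lungs and from 141 to 194 CPM (median 154) in 14-day WT lungs. In controls *Stab1* was at 114, 122, 128 and 147 CPM in KO lungs and 146, 157, 166 and 185 CPM in WT lungs. The genotypes were apart at 14 days and overlapped by 1 lung of each genotype in controls, and the log2 fold change was -0.33 (SE 0.059, FDR 0.0155). *Scarb1* (chromosome 5, 125277087 to 125341094), the receptor for high-density lipoprotein, ranged from 48.1 to 62.4 CPM (median 55.6) in 14-day KO lungs and from 60.1 to 70.7 CPM (median 62.8) in 14-day WT lungs. Control KO lungs had 46.0, 52.3, 54.1 and 56.5 CPM of *Scarb1* and control WT lungs 65.1, 68.9, 69.1 and 71.9 CPM. Here the control groups were apart and the 14-day groups overlapped, and the log2 fold change was -0.28 (SE 0.052, FDR 0.0187). Another annotated gene, *Gm42633*, overlaps *Scarb1* on the same strand. The replicate block, alone or with GC offsets, ended the calls of both *Stab1* (FDR up to 0.136) and *Scarb1* (up to 0.166).

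*Flt1* and *Flt4*, which encode VEGF receptors 1 and 3, differed by less. *Flt1* ranged from 274 to 300.2 CPM (median 290.3) in 14-day KO lungs and from 324 to 358 CPM (median 339) in 14-day WT lungs, without overlap. In controls *Flt1* was at 284, 294, 299.6 and 322 CPM in KO lungs and 300.5, 313, 329.8 and 334 CPM in WT lungs, which overlapped, and the log2 fold change was -0.17 (SE 0.036, FDR 0.0438). *Flt4*, the receptor of lymphatic endothelium, had -0.27 (SE 0.056, FDR 0.0473), with -0.27 at 14 days and -0.27 in controls. Leaving out 1 lung ended the call of *Flt1* in 17 of 20 fits (FDR up to 0.0961) and of *Flt4* in 14 (up to 0.109), the correction for GC content ended both (FDR 0.0511), and so did the fit that averages the 2 states (FDR 0.0524 and 0.0652). Without the filter on low counts *Flt1* was not called (FDR 0.0661).

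*Flt1* and *Flt4* were the 2 called among 25 tested genes of the VEGF, angiopoietin and Notch pathways of vessel growth. In that list 22 genes (20 with the correction for GC content) had a log2 fold change below 0, with a median of -0.11 (-0.10 at 14 days and -0.15 in controls), while 8163 of all 16029 genes tested were below 0 with a median of -0.0027. An unadjusted p under 0.05 was reached by 9 lower genes (5.55% of all genes were lower at such a p) and by 1 higher gene (5.2% of all genes), *Nrp1* (0.11), a VEGF and semaphorin coreceptor. Of those that missed an FDR of 0.05, *Aplnr*, the apelin receptor, had -0.24 (SE 0.064, FDR 0.149). *Tie1*, an orphan receptor tyrosine kinase of endothelium, had -0.21 (SE 0.061, FDR 0.198), and *Dll4*, the Notch ligand of sprouting tip cells, had -0.30 (SE 0.099, FDR 0.275). Of the 12 endothelial markers none was called and 9 were below 0, with a median of -0.048. The summed level of the endothelial markers overlapped at 14 days (2736 to 3015 CPM in KO, 2744 to 3043 in WT) and not in controls (2749 to 2930 in KO, 2987 to 3319 in WT), and its part in the lower *Flt1* and *Flt4* was not tested. Among the 3 lymphatic markers *Lyve1* had -0.67 (SE 0.15, FDR 0.0768), with -0.92 at 14 days and -0.28 in controls, and *Prox1*, which defines the lineage, had -0.19. The other marker, *Mmrn1*, was above 0, at 0.070. *Lyve1* passed with DESeq2 (FDR 0.0235) and without the filter on low counts (0.0489), and in 1 of 20 fits that left out a lung.

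Proteins of striated muscle were encoded by 3 lower genes. *Myh6* (chromosome 14, 54941921 to 54966927), the α heavy chain of cardiac myosin, ranged from 299 to 369 CPM (median 314) in 14-day KO lungs and from 408 to 658 CPM (median 508) in 14-day WT lungs. In control lungs *Myh6* was at 301, 359.6, 398 and 408 CPM in KO and 386, 388, 458 and 506 CPM in WT. The groups were apart at 14 days and overlapped in controls, and the log2 fold change was -0.49 (SE 0.086, FDR 0.0137). *Tnnt2*, cardiac troponin T, had -0.47 (SE 0.096, FDR 0.0438), with -0.57 at 14 days and -0.31 in controls. *Tcap*, the titin cap protein of the sarcomere, had -0.42 (SE 0.086, FDR 0.0457), with -0.35 at 14 days and -0.51 in controls. In the mouse, heart muscle cells continue from the left atrium along the pulmonary veins into the lung, so heart muscle RNA is a normal part of whole-lung samples. Of the 8 cardiac markers tested, 7 were below 0, 5 with an unadjusted p under 0.05 (5.55% of all genes), and the median was -0.35 (-0.40 at 14 days and -0.23 in controls). Called among the 8 were 2 with edgeR, 4 with DESeq2, 1 with the correction for GC content and 0 with the replicate block. Over all 16029 genes tested, these fits called 12, 44, 10 and 3 lower genes. The exception was *Nppa*, the atrial natriuretic peptide, at 0.58 (FDR 0.593). The summed level of the cardiac markers was 487 to 607 CPM in 14-day KO lungs against 621 to 987 in 14-day WT lungs, and 488 to 654 in control KO against 635 to 780 in control WT. How much atrial or venous tissue each sample held is not given in the labels, and its part in these 3 genes was not tested. The correction for GC content ended the calls of *Myh6* (FDR 0.0542) and *Tcap* (0.192), and left-out lungs ended *Tnnt2* in 11 of 20 fits (FDR up to 0.0957) and *Tcap* in 16 (up to 0.0978). The average of the 2 states also ended *Tnnt2* (FDR 0.0652), and the fit without the filter on low counts *Tcap* (0.0510).

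The last 2 lower genes have less known roles in the lung. *Efcab5* (chromosome 11, 77089915 to 77188968), which encodes an EF-hand protein, ranged from 1.39 to 2.46 CPM (median 1.81) in 14-day KO lungs and from 2.79 to 3.80 CPM (median 3.15) in 14-day WT lungs. Its control levels were 1.49, 1.55, 1.77 and 1.89 CPM in KO lungs and 2.04, 2.63, 3.23 and 3.45 CPM in WT lungs. *Efcab5* was thus lower without overlap in both states, and the log2 fold change was -0.75 (SE 0.14, FDR 0.0216), on 7 to 22 counts per lung, and its call was lost in 5 of 20 fits that left out a lung (FDR up to 0.0655) and without the filter on low counts (0.0575). *Lzts1*, a leucine zipper protein described as a tumor suppressor, had -0.40 (SE 0.075, FDR 0.0216), with -0.29 at 14 days and -0.55 in controls, and its call was lost without control KO lung 2 or 14-day WT lung 4 (FDR up to 0.0580).

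The lists for TGF-β signaling, cytoskeletal partners and transport, chloride channels and antioxidant enzymes held no called gene. None of the 35 TGF-β pathway genes tested was called, and the median was -0.016. Of these, 5 were lower and 2 higher at an unadjusted p under 0.05, beside 5.55% and 5.2% of all genes. *Id3*, an inhibitor of basic helix-loop-helix transcription factors that lies 0.871 Mb from *Clic4*, had 0.37 (SE 0.12, FDR 0.248), and the TGF-β target *Pmepa1* had 0.34 (SE 0.11, FDR 0.256). *Hivep2* (Schnurri-2), known as a partner of CLIC4 in its move to the nucleus under TGF-β, had -0.15 (SE 0.045, FDR 0.233). Of 21 genes for ezrin, radixin and moesin, small GTPases and transport proteins, none was called and the median was 0.021. *Cdc42*, a GTPase that orders the actin cytoskeleton, came nearest with 0.18 (SE 0.040, FDR 0.0543), and lies 2.05 Mb from *Clic4*, within the interval where linked DNA and the loss of CLIC4 cannot be told apart. Its FDR ran from 0.00305 with DESeq2 to 0.284 with the replicate block and GC offsets together, and it passed 0.05 in 4 of the 20 fits that left out a lung. *Rdx*, which encodes radixin, had 0.14 (SE 0.045, FDR 0.264). Neither the 23 other chloride channel and transporter genes nor the 29 genes for glutathione, thioredoxin and antioxidant enzymes held a called gene, with medians of -0.0031 and 0.018. *Slc12a2*, a chloride importer, had 0.16 (SE 0.040, FDR 0.146), and passed with DESeq2 (FDR 0.0316). DESeq2 called no TGF-β or antioxidant gene. The antioxidant genes with an unadjusted p under 0.05 were 3, all higher, namely *Txn1* (0.14), *Prdx1* (0.12) and *Prdx3* (0.14), beside 5.2% of all genes higher at such a p.

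**Figure D5:**
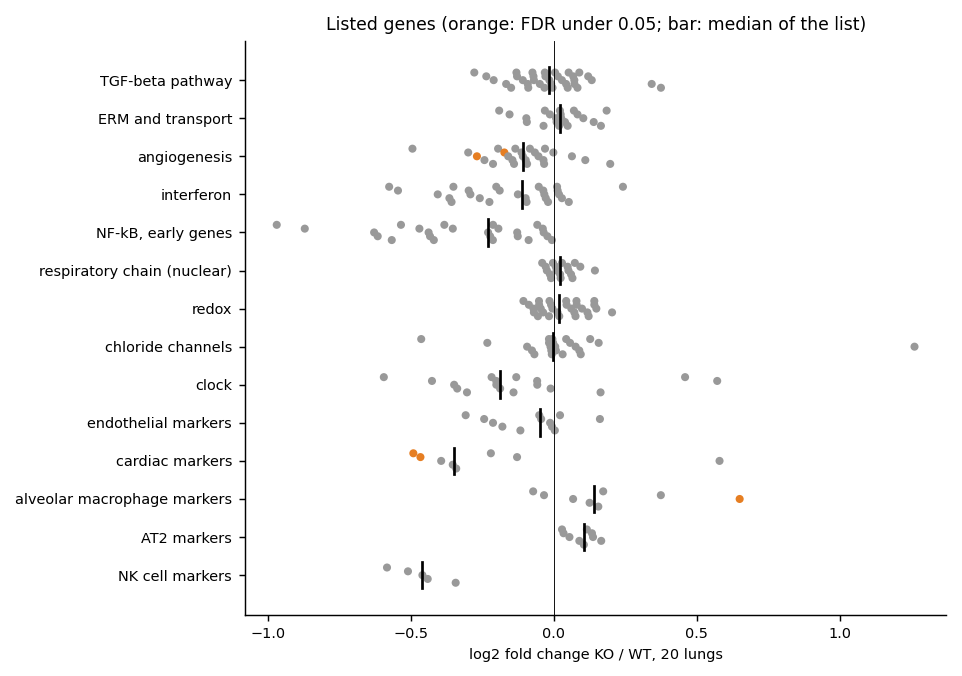
Log2 fold change of KO over WT over 20 lungs for the tested genes of 14 lists, with a bar at the median of each list and called genes in orange. The NF-κB and immediate early genes lie below 0 without a called gene, with a median of -0.23, the cardiac markers have 2 called genes below 0 (*Myh6* and *Tnnt2*), and *Chil3* at 0.65 is the called macrophage marker.

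Among inflammatory genes, the 25 tested NF-κB targets and immediate early genes were all below 0, with a median of -0.23 (-0.15 at 14 days and -0.44 in controls). None passed an FDR of 0.05, and in 4 of the 10 alternative fits 1 or 2 of them turned to above 0. *Nfkb1*, which encodes the p50 subunit, had -0.13 (SE 0.032, FDR 0.124), and was the 1 gene of this list that DESeq2 called (FDR 0.0325). *Cxcl2*, a chemokine for neutrophils, had -0.97 (SE 0.46, FDR 0.452), and these 2 were the genes of the list with an unadjusted p under 0.05. *Junb*, an immediate early transcription factor, had a larger unadjusted p, with -0.62 (SE 0.33, FDR 0.518). Single lungs moved both values, from -1.40 without 14-day KO lung 1 to -0.70 without 14-day WT lung 3 for *Cxcl2* and from -0.98 to -0.37 without the same lungs for *Junb*, which stood at 89.5 and 94.2 CPM in these 2 lungs. *Cxcl1*, *Ccl2*, *Il6* and *Tnf* were too low to test. The summed level of these genes overlapped between the genotypes, at 1162 to 3118 CPM in KO and 1442 to 3892 CPM in WT lungs at 14 days and at 1401 to 2588 and 2299 to 3289 CPM in controls. Of the 26 interferon response genes tested none was called, 20 were below 0 and none reached an unadjusted p under 0.05, with a median of -0.11. Single lungs stood out in that list, whose summed level reached 3925 CPM in a 14-day KO lung and 3862 CPM in a 14-day WT lung beside group medians of 1050 and 1186 CPM. The 18 nuclear and 9 mitochondrial genes of the respiratory chain held no called gene, with medians of 0.022 and -0.019. Among 17 clock genes none was called and the median was -0.19, with *Ciart* (-0.59), *Per3* (-0.35) and *Clock* (0.16) nearest to the threshold, at FDRs from 0.248 to 0.275. The labels do not give the hour at which the lungs were taken, and its part was not tested.

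Among markers of other cell types, 4 lists are described first, beside 7866 of 16029 genes tested above 0 and 8163 below. All 9 markers of type 2 alveolar cells were above 0 (8 in the fit that averages the 2 states), with a median of 0.10 and no called gene. Of these, 4 reached an unadjusted p under 0.05, beside 5.2% of all genes higher at such a p. All 5 natural killer cell markers were below 0 with a median of -0.46, and *Ncr1*, the receptor that defines these cells, had -0.51 (SE 0.23, FDR 0.441). Of the 5 B cell markers, 4 were below 0 over the 20 lungs. The list differed in direction between the states, with a median of 0.30 at 14 days and -0.79 in controls. The 6 erythroid markers were all above 0 over the 20 lungs, with a median of 0.27 (0.46 at 14 days and -0.061 in controls). Their summed level reached 12208 CPM in a 14-day KO lung, beside a group median of 4439 CPM and at most 5551 CPM in 14-day WT lungs, and the part of that lung in the value was not tested. No marker of these 4 cell types passed an FDR of 0.05, with edgeR or with DESeq2. Other lists without a called gene were also uneven. All 5 smooth muscle (median 0.097), 4 mesothelial (0.13), 4 club cell (0.11) and 4 tested adipocyte markers (0.062) were above 0. All 4 platelet (-0.19) and 4 cycling cell markers (-0.17) were below 0, as were 5 of 7 type 1 alveolar markers (-0.075).

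Each state was also fitted alone. At an FDR of 0.05, 6 genes (0.0374%) were called in the 14-day lungs, among them *Clic4*, *Pnrc2*, *Sepn1*, *Zfp46* and *Myh6*. All 6 had the same sign and an unadjusted p under 0.05 in the control lungs, which share no animal with the 14-day lungs, while 14.1% of all genes had such a p in controls. In the control lungs 6 genes (0.0374%) were called as well, namely *Clic4*, *Pnrc2*, *Hc*, *Marcks*, *Ucp2* and *Hmha1*. All 6 had the same sign at 14 days, and 3 of them, *Clic4*, *Pnrc2* and *Hc*, an unadjusted p under 0.05 there, beside 7.13% of all genes. The other 3 were near 0 at 14 days, with 0.086 against 0.41 in controls for *Marcks*, an actin-binding substrate of protein kinase C, -0.11 against -0.36 for *Ucp2*, a mitochondrial carrier, and -0.0053 against -0.48 for *Hmha1*. The count in controls fell to between 1 and 4 when any 1 of the 8 lungs was left out, *Clic4* being the only gene called without control KO lung 2. DESeq2 called 52 genes at 14 days and 107 in controls, beside its 80 over all lungs. Over all genes, 53.3% had the same sign in both states.

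The difference between the states was tested as the interaction of genotype and tumor. None of the 28 genes passed an FDR of 0.05 there, the smallest FDR being 0.438. *Sepn1* and *Myh6* were the 2 with an unadjusted p under 0.05, and both differed by more at 14 days (0.80 and -0.66) than in controls (0.49 and -0.24). Of all genes, 1 passed (0.00624%; 16 with DESeq2 and 0 to 2 with a lung left out), and 1367 had an unadjusted p under 0.05 (8.53%). A p above the threshold does not show that the differences were equal in both states.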

How the data were processed

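RNA of whole lung lobes was sequenced from stranded mRNA libraries, and 20 lungs were used here. The authors used STAR on GRCm38 and RSEM, and deposited the expected counts as integers, not normalized, for 29511 genes (29244 in GENCODE M21, used here for positions and exons). The deposited FPKM, scaled by the authors for transcript length and depth, were used for the *Clic* family and, after the data were seen, in a test of log2(FPKM + 1) with limma 3.58.1 over 18477 genes with a mean of at least 0.5 FPKM. RSEM divides reads shared by near-identical genes, and its strand setting is not given in the sources used here. The 12 tumors were not used here, and 1 called gene is counted but not reported here by name.

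The counts, read as integers, were tested with edgeR 4.0.16 (R 4.3.3; quasi-likelihood test, two-sided) after TMM normalization and filterByExpr on the 4 groups, which left 16029 genes. The model held tumor state and genotype; the 12 and the 8 lungs of each state were also fitted alone, and an interaction was tested. Called genes had an FDR under 0.05. An unadjusted p under 0.05 was found for 1723 genes. Each SE was derived from the log2 fold change and its F statistic. The members, gene lists (11 pathway and 25 marker lists) and tests were chosen with earlier results of these data known. Named are *Clic4* and its paralogs, called genes of one sign in both states (the 12 with the smallest p in each direction and the 5 in each direction that lie on another chromosome or over 20 Mb from *Clic4*), called members of each list or otherwise its 3 with the smallest p, and the gene with the smallest interaction p. Other genes of the lists are named with their values as chosen after these were seen.

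Alternatives were DESeq2 1.42.0, a contrast averaged over the states, RLE size factors, libraries without Rn7 RNAs, no filter, at least 10 counts in every lung, other limits, no covariate, a replicate block, offsets for GC content (loess, span 0.5, 99.5% of tested genes with a value) and each lung left out. The steps were tested on simulated data. Depth was 4567220 to 8318711 counts per lung, and p-values measure the spread between lungs, each labelled as a separate sample. Python 3.11.15 with numpy 2.4.6, pandas 2.3.3 and matplotlib 3.10.9 was used for tables and plots.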

Additional observations from a re-analysis of the deposited data

Results flagged for a closer look

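Among the 112 groups of values formed by the 28 called genes in 4 groups of lungs, 5 held a lung that stood apart from the rest of its group by Dixon's criterion, and chance alone marks about 1 in 20 groups. Control KO lung 2 had the lowest *Sepn1* level of its group, 33.8 CPM against 41.2 CPM for the nearest lung, and was still above every control WT lung. Control WT lung 2 had the highest *Cdk19* level of its group, at 68.2 CPM with the nearest at 59.6 CPM. Control WT lung 1 was highest for *Slc5a12*, at 3.85 CPM with the nearest at 2.91 CPM. In 14-day KO lung 2, *Sema3c* reached 894 CPM beside 785 CPM in the nearest lung, and *Igfbp5* reached 305 CPM beside 264 CPM. Both genes are higher in KO lungs, and without that lung their log2 fold changes over the other 19 lungs were lowest, at 0.26 for *Sema3c* and 0.23 for *Igfbp5*, with both calls kept.

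One gene outside the 28 had a genotype difference that differed between the states by the test of the interaction. *Nfix*, a transcription factor of the nuclear factor I family, had a log2 fold change (KO over WT) of 0.37 at 14 days and -0.48 in controls, a difference of 0.86 (SE 0.13, FDR 0.0240). The call was lost in 10 of the 20 fits that left out a lung (FDR up to 0.106), with differences of 0.76 to 0.94. Its genotype effect over all 20 lungs was 0.027 (FDR 0.961), since the 2 states cancelled.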

How the results depend on the processing

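All 28 called genes kept their direction in every alternative fit of the counts that tested them, and of 833 gene values under these 642 kept the call and 191 lost it. The calls of *Clic4*, *Pnrc2*, *Sepn1*, *Zfp46*, *Cdk19* and *Camk2n1* were lost in none of these. DESeq2 called more genes, with 80 over all lungs (36 higher and 44 lower), 58 of them present in both states, 52 at 14 days, 107 in controls, 16 for the interaction and 7 in the pathway lists in place of 3. Of its 14-day calls 36 carried over to controls, and 64 of its control calls carried over to 14 days. With GC offsets 10 genes were called at 14 days, 2 in controls (both carried over to 14 days) and 1 in the lists; averaging the 2 states also left 1 in the lists. An FDR of 0.05 with a 1.5-fold limit left 8 genes (5 higher and 3 lower), and an FDR of 0.25 gave 8 genes for the interaction. The test of log2(FPKM + 1) with limma, chosen after seeing the data, called 3 genes (2 higher and 1 lower) and kept the call of 3 of the 27 genes it tested. The cause of these shifts was not tested, apart from the stricter or looser limits themselves.

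Whether the replicate numbers pair the lungs is not given in the labels. Same-numbered lungs correlated at -0.080 to 0.232 at 14 days and -0.212 to -0.043 in controls, and 0 KO lungs correlated best with their own number. These correlations do not settle whether same-numbered lungs were paired. With the replicate block, 9 genes were called (6 higher and 3 lower), all among the 28, 9 present in both states, 1 in the lists and 1 in controls, of which 1 carried over to 14 days. The block together with GC offsets gave 9 genes (6 higher and 3 lower) and 1 in the lists.

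With each lung left out in turn, the count over all lungs was 16 to 34 (10 to 18 higher and 6 to 19 lower), and 16 to 34 genes were present in both states. It was 4 to 11 at 14 days (11 without KO lung 3), 1 to 4 in controls, 0 to 2 for the interaction, 1 to 4 in the lists and 7 to 9 near *Clic4*, and the *Clic4* log2 fold change was -1.50 to -1.43. The 16 of all lungs was without 14-day WT lung 4, and 18 remained without control KO lung 2. Without 14-day WT lung 3 or 4, 10 were higher. Lower genes numbered 7 without 14-day KO lung 2 or 5, 6 without control KO lung 2 or 14-day WT lung 4, and 19 without 14-day WT lung 6.

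Uncalled genes changed sign, most of them near 0. *Clic1* was at 0.010 with GC offsets and 0.0093 with the block added, *Clic3* at -0.012 in the average of the states and -0.0013 without the covariate, *mt-Nd1* at -0.00068 and -0.0011 with GC offsets alone and with the block, and *Nfix* at -0.062 in the average. With single lungs left out, *Clic1* ranged from -0.039 to 0.0063, *Clic3* from -0.032 to 0.035, *Ifit1*, which is not near 0 at -0.55 and turned only without 14-day WT lung 5, from -1.61 to 0.13, and *Nfix* from -0.016 to 0.097. At this depth genes with few counts, such as *Cemip*, are measured with little precision, and 13482 of 29511 genes could not be tested.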
